A study of Mus musculus with 14 samples.

Results

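The 6 genes *Nes*, *Sox1*, *Pax6*, *Sox11*, *Tubb3* and *Map2* are widely used to mark neural progenitors and young neurons, and their transcripts were followed in mouse embryonic stem (ES) cells entering dormancy. They were taken by gene name from 54446 gene identifiers, and each name matched 1 identifier. All 6 were above 0 in all 14 libraries, and all 6 were among the 15878 genes tested.

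Bulk RNA-seq was available for E14 ES cells, an established mouse ES cell line kept here in serum and LIF on gelatin without feeder cells. The mTOR inhibitor INK128 (mTORi) was added to wild-type cells, which were collected at 0, 24, 72 and 144 h, and to *Tet1/2* DKO cells, which were collected at 0, 24 and 72 h. Each of the 7 groups held 2 biological replicates. The DKO line was 1 sorted clone made in E14 with Cas9 and guides against exons of *Tet1* and *Tet2*, so that what belongs to the genotype and what belongs to the clone cannot be told apart. The 0 h cells of both genotypes had no inhibitor. Values are TPM, transcripts per 1000000, which give the share of a gene in its library corrected for transcript length.

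When pluripotent cells leave self-renewal without signals for other lineages, they tend towards neuroectoderm. SOXB1 factors such as SOX1 and the paired-box factor PAX6 mark this step, the filament protein nestin (*Nes*) accompanies it, and the SOXC factor SOX11 acts later, as neuronal genes such as *Tubb3* (β-III tubulin) and *Map2* (a dendritic microtubule-binding protein) come on. TET1 and TET2 oxidize methylated cytosines, which lie mostly in CpG dinucleotides, and the promoters of many neural regulators are rich in CpG.

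The promoter sequences of 5 genes are shown: *Nes*, *Tubb3* and *Map2* fell together at 24 h in wild-type cells, *Sox11* rose at 72 and 144 h, and *Pax6* was low in all DKO libraries. Whether the sequences bear on these changes was not tested. The bases are upstream of both the RefSeq start and the start in the deposited annotation. *Sox1* had 26 such bases and is not shown. They are from RefSeq (GRCm38.p6, the build of mm10), written 5′ to 3′ on the strand of the gene, with CpG dinucleotides in capitals.
Nes (chr3:87970843-87971077, plus strand): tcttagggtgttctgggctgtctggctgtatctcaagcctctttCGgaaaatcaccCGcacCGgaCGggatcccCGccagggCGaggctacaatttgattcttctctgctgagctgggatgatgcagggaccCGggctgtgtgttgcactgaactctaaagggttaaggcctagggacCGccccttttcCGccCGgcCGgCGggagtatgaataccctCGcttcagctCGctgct
Pax6 (chr2:105668646-105668895, plus strand): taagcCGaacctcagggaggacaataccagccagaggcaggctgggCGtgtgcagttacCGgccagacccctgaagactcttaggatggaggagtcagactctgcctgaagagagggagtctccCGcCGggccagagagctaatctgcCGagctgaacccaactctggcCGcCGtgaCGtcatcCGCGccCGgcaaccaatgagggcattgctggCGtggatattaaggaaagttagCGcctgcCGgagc
Sox11 (chr12:27342719-27342968, minus strand): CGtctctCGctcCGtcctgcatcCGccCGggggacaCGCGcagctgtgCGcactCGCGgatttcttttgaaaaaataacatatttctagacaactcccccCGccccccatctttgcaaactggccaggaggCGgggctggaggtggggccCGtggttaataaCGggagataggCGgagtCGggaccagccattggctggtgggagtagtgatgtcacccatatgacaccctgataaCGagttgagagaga
Tubb3 (chr8:123411303-123411423, plus strand): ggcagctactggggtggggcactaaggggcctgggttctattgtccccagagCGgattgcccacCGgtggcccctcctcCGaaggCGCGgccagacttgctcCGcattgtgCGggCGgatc
Map2 (chr1:66175079-66175272, plus strand): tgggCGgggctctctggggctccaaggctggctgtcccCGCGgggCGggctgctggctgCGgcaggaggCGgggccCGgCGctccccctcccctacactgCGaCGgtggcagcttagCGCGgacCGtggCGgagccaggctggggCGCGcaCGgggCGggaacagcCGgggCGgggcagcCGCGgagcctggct

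All 6 genes matched a RefSeq promoter window of 300 bases (250 before to 50 after the start). Within these windows *Nes* had 18 CpG, *Sox1* 37, *Sox11* 21, *Pax6* 18 at its upstream start and 16 at a downstream start, *Tubb3* 26 and *Map2* 37. The median over all 32851 windows was 7, so that each of the 6 genes had more than the median promoter. The GC box letters GGGCGG were present on either strand in 5 of the genes (5 matches in *Map2*, 3 in *Sox1*, and 2 each in *Nes*, *Sox11* and *Tubb3*) and in 35.7% of all windows. The letters CCAAT were found in *Sox1*, *Sox11*, *Pax6* and *Tubb3*, and in 37.4% of all windows. The letters TGACGTC were found only in *Pax6* among the 6 genes, as 2 matches that overlap on opposite strands in the window of the upstream start, and in 3.21% of all windows. The letters ATGCAAA were found only in *Sox1* among the 6, and in 4.63% of all windows. TATAAA and CACGTG, held by 13.6% and 7.15% of all windows, had no match in any of the members' windows.

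The identity of the ES cells and of the 2 genotypes was checked before the members were compared. *Pou5f1*, a core pluripotency factor, was between 792 and 1057 TPM over all libraries, and the 12 pluripotency markers summed to between 5389 and 8014 TPM. Within that sum the markers moved apart. In wild type at 144 h 5 of the 12 rose and 1 fell, where 17.4% and 12.7% of all genes did. The largest rises were *Klf4* (1.39 ± 0.20, adjusted p = 0.00090), *Tdgf1* (0.91 ± 0.13, adjusted p = 0.00091) and *Dppa5a* (0.69 ± 0.18, adjusted p = 0.017, lost without 0 h replicate 1, 144 h replicate 1 or 144 h replicate 2, adjusted p up to 0.13). With spike-in scaling 0 of the 12 rose and 6 fell, where 8917 of all 15878 genes fell. *Nanog* fell in wild type at 72 h (−0.87 ± 0.20, adjusted p = 0.0093, lost without 0 h replicate 2 or 72 h replicate 1, adjusted p up to 0.068) and 144 h (−0.61 ± 0.20, adjusted p = 0.040, lost without any 1 of the 4 libraries, adjusted p up to 0.17). In DKO at 72 h 2 of the 12 rose and 2 fell, where 18.8% and 10.2% of all genes did. The falls were those of *Klf2* (−0.91 ± 0.15, adjusted p = 0.0026) and *Nanog* (−0.85 ± 0.20, adjusted p = 0.011). The *Nanog* call is lost without 0 h replicate 2 or 72 h replicate 2 (−0.76 to −0.56). With spike-in scaling 0 of the 12 rose and 1 fell in DKO at 72 h. *Tet2* was between 96.0 and 143 TPM in the wild-type libraries and between 15.9 and 22.2 TPM in the DKO libraries, and it was called lower in DKO at each time. *Tet1* was lower in DKO (147 to 248 TPM against 191 to 313 TPM at the same times) but was called at 24 h alone, a call lost without any 1 of its 4 libraries (adjusted p up to 0.10). Its guides were placed in exons, and a total over the gene does not show whether they are intact. The paper describes deletion of both genes, screened by PCR in the clones and checked by western blot with TET1 and TET2 antibodies. *Tet3* was not called between the genotypes at any time. The 2 replicates of a group had a Pearson r of 0.976 to 0.989 across the genes tested.

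*Tubb3* was the most abundant of the 6, with a mean of 46.4 TPM over the 14 libraries, above 80.2% of the genes tested. The means of *Sox11* and *Nes* were 6.82 and 5.60 TPM, above 36.9% and 33.1% of the genes tested. *Map2*, *Pax6* and *Sox1* had means of 2.81, 2.76 and 2.65 TPM, above 20.8%, 20.5% and 19.8%. In bulk libraries, fewer cells with a transcript and less transcript per cell cannot be told apart, so these low means do not say how many cells hold it.

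**Figure D1:**
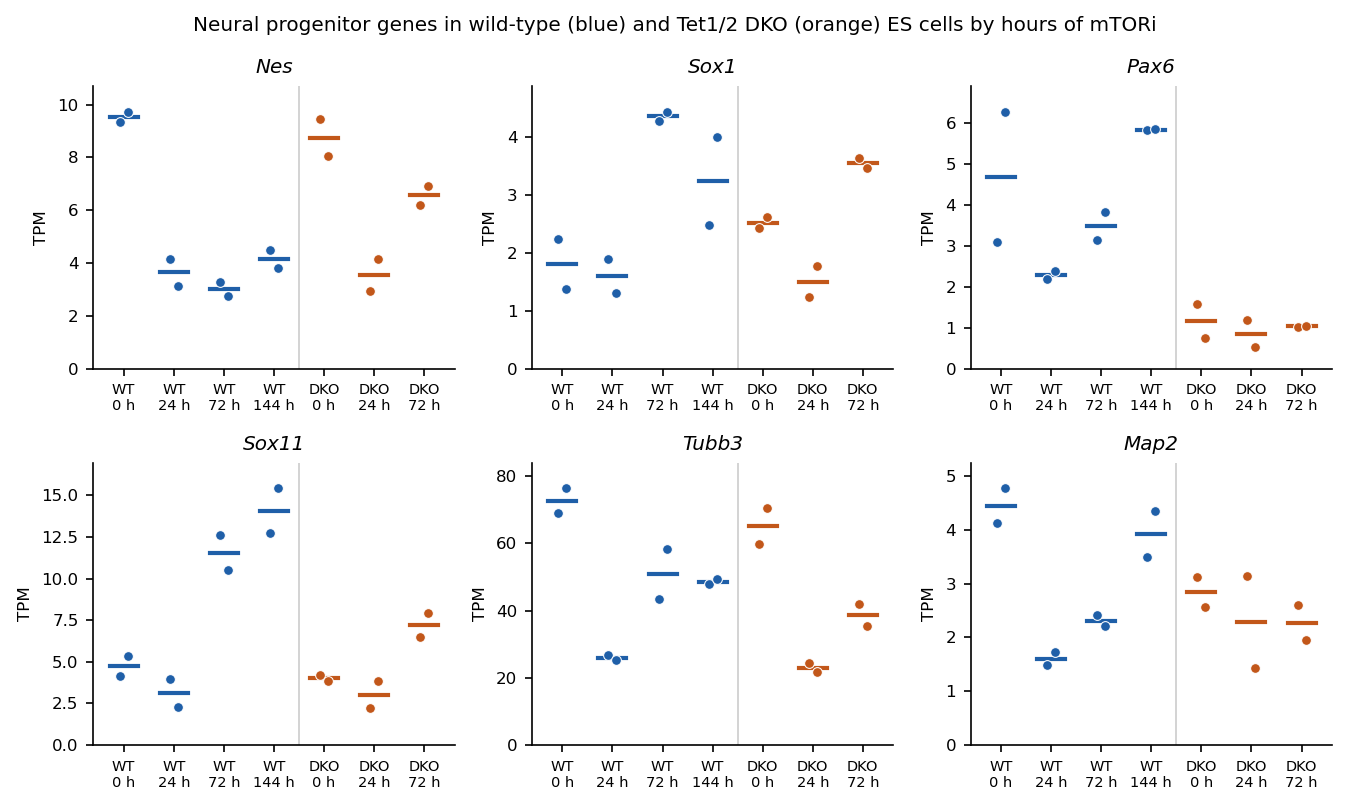
TPM (linear axis from 0) of each of the 6 genes in each library (points) with the group mean (bars), for wild type (blue) and *Tet1/2* DKO (orange) by hours of mTORi. *Nes*, *Tubb3* and *Map2* are lower at 24 h than at 0 h in wild type, *Sox11* reaches 15.4 TPM at 144 h, and the 6 DKO libraries of *Pax6* (0.516 to 1.59 TPM) sit below every wild-type library.

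*Nes* encodes nestin, the intermediate filament of neural stem cells, and lies on chr3:87971078-87980451 (mm10, plus strand). In wild type it stood at 9.34 and 9.73 TPM at 0 h, 4.16 and 3.13 TPM at 24 h, 3.28 and 2.74 TPM at 72 h, and 4.5 and 3.82 TPM at 144 h. Every treated wild-type library was below both 0 h libraries. In DKO it stood at 9.44 and 8.04 TPM at 0 h, 2.94 and 4.15 TPM at 24 h, and 6.21 and 6.91 TPM at 72 h. The DKO libraries at 72 h lay between those at 24 h and those at 0 h, and above both wild-type libraries at 72 h.

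*Nes* fell in wild type at each time, with a log2 fold change of −1.19 ± 0.17 (SE) at 24 h (adjusted p = 0.00073), −1.40 ± 0.17 at 72 h (adjusted p = 0.00054) and −1.03 ± 0.17 at 144 h (adjusted p = 0.0020). In DKO it fell at 24 h by a similar estimate (−1.11 ± 0.17, adjusted p = 0.0014), and at 72 h the value was −0.36 ± 0.17 (adjusted p = 0.14). At 72 h the DKO cells held more *Nes* than wild type, by 0.92 ± 0.17 (adjusted p = 0.021). This call is lost without any 1 of the 4 libraries compared (log2 fold change 0.82 to 1.01, adjusted p = 0.080 without wild-type replicate 1, 0.12 without replicate 2, 0.11 without DKO replicate 1 and 0.13 without replicate 2), with centring on the median (0.80, adjusted p = 0.051) and with only the groups compared in the fit (adjusted p = 0.099). The difference between the 72 h responses of the 2 genotypes, 1.03 ± 0.24, had an unadjusted p of 0.0016 and an adjusted p of 0.9996, and was not called.

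*Sox1*, a SOXB1 factor and an early mark of neuroectoderm, is an intronless gene on chr8:12395295-12400126 (mm10, plus strand). Its libraries read 2.24 and 1.37 TPM at 0 h, 1.89 and 1.30 TPM at 24 h, 4.27 and 4.43 TPM at 72 h, and 2.47 and 4.0 TPM at 144 h in wild type. The 72 h libraries were above all 0 and 24 h libraries, and the 144 h libraries differed widely from each other. In DKO they read 2.42 and 2.61 TPM at 0 h, 1.23 and 1.77 TPM at 24 h, and 3.64 and 3.46 TPM at 72 h. *Sox1* rose in wild type at 72 h (0.95 ± 0.22, adjusted p = 0.011), a call lost without wild-type 0 h replicate 2 (0.72, adjusted p = 0.077) or 72 h replicate 2 (0.93, adjusted p = 0.063). At 144 h the value was 0.59 ± 0.22 (adjusted p = 0.068), and it passed without 144 h replicate 1 (0.85, adjusted p = 0.042). In DKO neither 24 h (−0.50 ± 0.22, adjusted p = 0.12) nor 72 h (0.37 ± 0.22, adjusted p = 0.23) was called. The overlapping long non-coding gene *Sox1ot*, on the same strand, did not exceed 0.296 TPM.

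*Pax6*, a paired-box factor of neuroectoderm and eye, lies on chr2:105668900-105697364 (mm10, plus strand). In wild type it stood at 3.1 and 6.29 TPM at 0 h, 2.18 and 2.39 TPM at 24 h, 3.13 and 3.83 TPM at 72 h, and 5.83 and 5.86 TPM at 144 h. The 0 h replicates differed the most, and they span the values at 72 and 144 h. In DKO it stood at 1.59 and 0.743 TPM at 0 h, 1.18 and 0.516 TPM at 24 h, and 1.01 and 1.05 TPM at 72 h.

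No DKO library of *Pax6* reached the lowest wild-type library of the same times (highest of the 6 DKO libraries 1.59 TPM, lowest of the 6 wild-type libraries 2.18 TPM). Such a separation downwards was found for 0.794% of all genes tested, and *Pax6* was the only 1 of the 6 genes that showed it. After spike-in scaling the 2 ranges overlapped (0.70 to 4.48 against 3.13 to 13.3). By time, the difference was −1.36 ± 0.28 at 0 h (adjusted p = 0.061), −0.85 ± 0.28 at 24 h (adjusted p = 0.17) and −1.14 ± 0.28 at 72 h (adjusted p = 0.048). The last was called, and its call is lost without any 1 of the 4 libraries (−1.25, adjusted p = 0.14 without wild-type replicate 1, −1.03 and 0.20 without replicate 2, −1.13 and 0.21 without DKO replicate 1, −1.15 and 0.19 without replicate 2). It is also lost with a pseudocount of 0.1 (adjusted p = 0.058), without the filter on low values (0.11), with a replicate block over all libraries (0.074) and with only the groups compared in the fit (0.095). At 0 h *Pax6* passed with centring on the median (−1.39, adjusted p = 0.045) and with the replicate numbers crossed between the genotypes (−1.36, adjusted p = 0.018). Against 0 h of its genotype *Pax6* was not called at any time. The lowest adjusted p was that of −0.73 ± 0.28 at 24 h in wild type (adjusted p = 0.071), which passed with replicates blocked within the genotype (adjusted p = 0.030), with centring on the median (−0.80, adjusted p = 0.034) and without wild-type 0 h replicate 1 (−1.15, adjusted p = 0.017). The antisense gene *Pax6os1* did not exceed 0.022 TPM.

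*Sox11*, a SOXC factor of progenitors leaving the cycle and of young neurons, is also intronless and lies on chr12:27334264-27342574 (mm10, minus strand). In wild type it stood at 4.13 and 5.33 TPM at 0 h, 3.97 and 2.29 TPM at 24 h, 12.6 and 10.5 TPM at 72 h, and 12.7 and 15.4 TPM at 144 h. The 4 libraries at 72 and 144 h were above every library of the earlier times. In DKO it stood at 4.22 and 3.84 TPM at 0 h, 2.21 and 3.85 TPM at 24 h, and 6.47 and 7.93 TPM at 72 h, where both libraries were above the other DKO libraries and below the wild-type ones at 72 h. *Sox11* rose in wild type by 1.13 ± 0.24 at 72 h (adjusted p = 0.0073) and by 1.40 ± 0.24 at 144 h (adjusted p = 0.0024). The 72 h call is lost without wild-type 0 h replicate 1 (0.98, adjusted p = 0.052). In DKO the 72 h value was 0.70 ± 0.24 (adjusted p = 0.053, 0.044 with replicates blocked within the genotype and 0.040 with only the groups compared in the fit). DKO and wild type at 72 h differed by −0.61 ± 0.24 (adjusted p = 0.17), and the 2 responses by −0.43 ± 0.34 (adjusted p = 0.9996).

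*Tubb3* encodes the β-tubulin isotype of neurons and lies on chr8:123411424-123422015 (mm10, plus strand). In wild type it stood at 69.0 and 76.4 TPM at 0 h, 26.8 and 25.3 TPM at 24 h, 43.5 and 58.3 TPM at 72 h, and 47.8 and 49.4 TPM at 144 h. In DKO it stood at 59.7 and 70.5 TPM at 0 h, 24.5 and 21.6 TPM at 24 h, and 42.1 and 35.3 TPM at 72 h. In both genotypes the 24 h libraries were the lowest, and later libraries lay between them and the 0 h libraries.

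*Tubb3* fell at 24 h in wild type (−1.45 ± 0.15, adjusted p = 0.00012) and in DKO (−1.46 ± 0.15, adjusted p = 0.00016), and the 2 responses differed by −0.01 ± 0.21. In DKO it was still lower at 72 h (−0.74 ± 0.15, adjusted p = 0.0054). In wild type it was lower at 72 h (−0.52 ± 0.15, adjusted p = 0.024) and at 144 h (−0.57 ± 0.15, adjusted p = 0.015). The wild-type 72 h call is lost without 0 h replicate 1 (−0.59, adjusted p = 0.054), 0 h replicate 2 (−0.45, adjusted p = 0.12) or 72 h replicate 1 (−0.31, adjusted p = 0.16). It is also lost without the filter on low values (adjusted p = 0.064) and with only the groups compared (adjusted p = 0.083). The 144 h call is lost without 0 h replicate 2 (−0.50, adjusted p = 0.083), 144 h replicate 1 (−0.55, adjusted p = 0.076) or 144 h replicate 2 (−0.59, adjusted p = 0.067). The difference between the genotypes was not called at any time, and its estimate was −0.38 ± 0.15 at 72 h (adjusted p = 0.16).

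*Map2* encodes a protein that binds the microtubules of dendrites and lies on chr1:66175273-66442583 (mm10, plus strand). In wild type it stood at 4.12 and 4.78 TPM at 0 h, 1.49 and 1.72 TPM at 24 h, 2.41 and 2.22 TPM at 72 h, and 3.5 and 4.36 TPM at 144 h. It was lowest at 24 h, and the 144 h libraries overlapped the 0 h libraries. In DKO it stood at 3.12 and 2.57 TPM at 0 h, 3.14 and 1.44 TPM at 24 h, and 2.59 and 1.95 TPM at 72 h, so that the 24 h replicates alone spanned all the others. *Map2* fell in wild type at 24 h (−1.06 ± 0.23, adjusted p = 0.0062) and at 72 h (−0.72 ± 0.23, adjusted p = 0.045). The 72 h call is lost without any 1 of the 4 libraries (−0.80, adjusted p = 0.095 without 0 h replicate 1, −0.63 and 0.17 without 0 h replicate 2, −0.76 and 0.11 without 72 h replicate 1, −0.67 and 0.17 without 72 h replicate 2). It is also lost with a pseudocount of 0.1 (adjusted p = 0.059), without the filter on low values (0.11), with a replicate block over all libraries (0.055) and with only the groups compared in the fit (0.052). With replicates blocked within the genotype it held (adjusted p = 0.012). At 144 h the value was −0.15 ± 0.23 (adjusted p = 0.67). In DKO the values were −0.27 ± 0.23 at 24 h (adjusted p = 0.42) and −0.24 ± 0.23 at 72 h (adjusted p = 0.47), and the 2 responses at 24 h differed by 0.79 ± 0.33 (unadjusted p = 0.036, adjusted p = 0.9995). The small RNA gene *Gm24729*, in the same interval and on the same strand, reached 0.705 TPM.

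**Figure D2:**
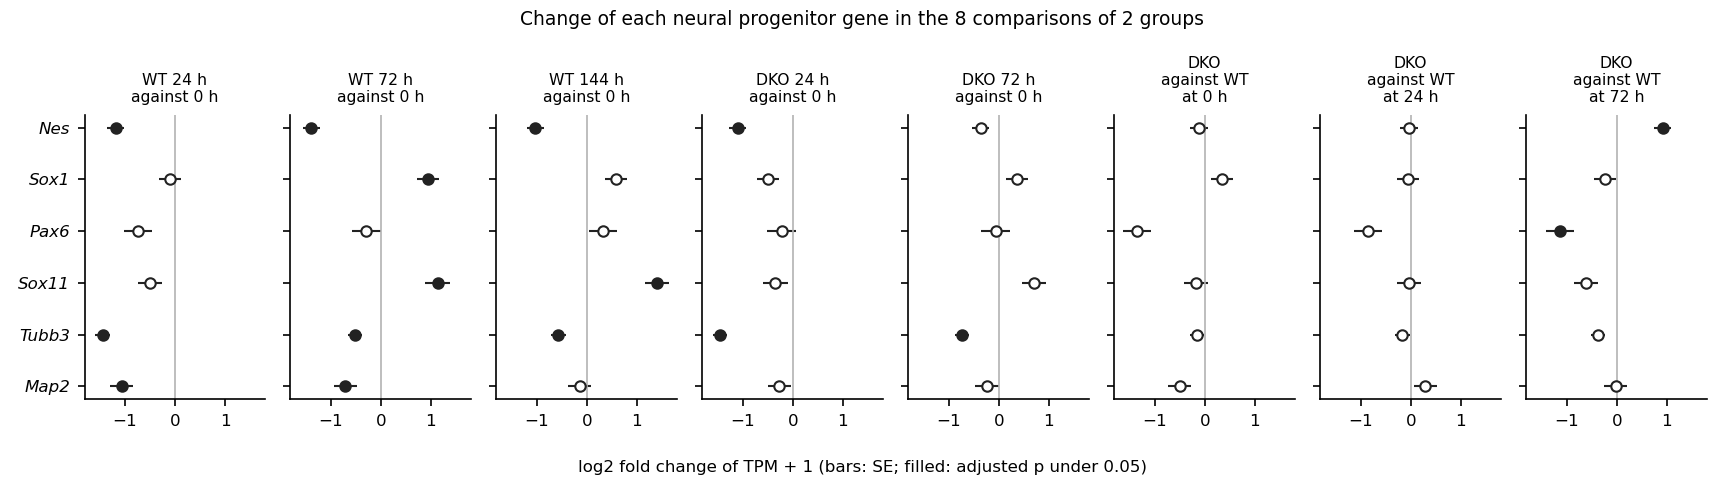
Log2 fold change of TPM + 1 (points, horizontal axis) with its SE (bars) for the 6 genes in the 5 comparisons of a time with 0 h and the 3 of DKO with wild type, filled where the adjusted p was under 0.05. *Nes* and *Tubb3* are left of 0 in every comparison with 0 h, *Sox11* moves from −0.50 at 24 h to 1.40 at 144 h in wild type, and *Nes* (0.92) and *Pax6* (−1.14) are the filled points of DKO against wild type.

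Counted together, 3 of the 6 fell and 0 rose in wild type at 24 h (*Nes*, *Tubb3*, *Map2*), where 33.3% of all genes tested were called and 15.7% were called lower. At 72 h 3 fell and 2 rose (*Sox1*, *Sox11*), against 27.2% of all genes called, 12.8% lower and 14.4% higher. At 144 h 2 fell (*Nes*, *Tubb3*) and 1 rose (*Sox11*), against 30.1% called, 12.7% lower and 17.4% higher. In DKO 2 fell at 24 h (*Nes*, *Tubb3*), against 28.2% called, 15.1% lower and 13.2% higher, and 1 at 72 h (*Tubb3*), against 28.9% called, 10.2% lower and 18.8% higher. Between the genotypes 0 of the 6 were called at 0 h (0.812% of all genes) and at 24 h (1.74%), and 2 at 72 h (5.21%), *Nes* higher (4.14% of all genes) and *Pax6* lower (1.07%). These shares rest on 129, 277 and 828 genes at 0, 24 and 72 h, which became 7, 11 and 83 with spike-in scaling and 481, 746 and 1899 with the replicate numbers crossed between the genotypes. *Pax6* had an unadjusted p under 0.05 at 0 and at 24 h. For the difference of the 2 responses limma called 0 of the 15878 genes at 24 h and 0 at 72 h, with 620 and 577 genes at an unadjusted p under 0.05. The 3 times of wild type share their 0 h libraries, as do the 2 times of DKO.

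The 7 groups were ordered by mean TPM for each gene, and neighbours in the order were tested. Of all neighbouring pairs 1 was called, *Tubb3* in DKO at 72 h (38.7 TPM) above wild type at 24 h (26.0 TPM), by 0.55 (adjusted p = 0.020), a pair of groups in which 26.5% of all genes were called, 18.1% higher and 8.41% lower in the DKO group. *Nes* and *Tubb3* were highest at 0 h in both genotypes, in wild type (9.54 ± 0.27 and 72.7 ± 5.3 TPM, SD, n = 2) and then in DKO (8.74 ± 0.99 and 65.1 ± 7.6 TPM). *Map2* was highest in wild type at 0 h (4.45 ± 0.46 TPM) and 144 h (3.93 ± 0.61 TPM). *Sox11* was highest in wild type at 144 h (14.1 ± 1.9 TPM) and 72 h (11.6 ± 1.5 TPM), *Sox1* in wild type at 72 h (4.35 ± 0.11 TPM) and DKO at 72 h (3.55 ± 0.13 TPM), and *Pax6* in wild type at 144 h (5.85 ± 0.02 TPM) and 0 h (4.69 ± 2.3 TPM). DKO at 24 h held the lowest or next lowest place for each of the 6 genes except *Map2*, and the 3 lowest places of *Pax6* were the 3 DKO groups.

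TPM are shares of a library and do not show a change in the amount of RNA per cell. A fixed RNA mix (ERCC) had been added by the study, and the scaling of each library to it shifted the whole distribution. On the log2 fold change scale, the median gene in wild type stood at −0.00, 0.04 and 0.06 (24, 72 and 144 h against 0 h) as deposited and at −0.34, −0.35 and −0.88 when scaled. In DKO it stood at 0.00 and 0.13 (24 and 72 h) as deposited and at −0.51 and −0.15 when scaled, and between the genotypes at 0.03, 0.01 and 0.11 (0, 24 and 72 h) as deposited and at 0.30, 0.10 and 0.50 when scaled. With it, the calls at 144 h turned from 2762 genes higher and 2019 lower to 83 higher and 8917 lower. *Nes* fell under both scalings in wild type, with spike-in scaled changes of −1.62, −1.89 and −2.0 at 24, 72 and 144 h, and so did *Tubb3* at 24 and 144 h (−1.83 and −1.59) and *Map2* at 24 h (−1.52). *Map2* at 144 h (−1.04, adjusted p = 0.040) and, in DKO at 24 h, *Sox1* (−1.07, adjusted p = 0.036) and *Sox11* (−0.91, adjusted p = 0.048) were called with spike-in scaling alone.

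The rises were not called after spike-in scaling. *Sox11* was at 0.81 ± 0.33 at 72 h (adjusted p = 0.11) and 0.51 ± 0.33 at 144 h (adjusted p = 0.18), and *Sox1* at 0.73 ± 0.36 at 72 h (adjusted p = 0.19) and −0.14 ± 0.36 at 144 h. In scaled units *Sox11* went from 9.98 ± 1.8 at 0 h to 18.2 ± 3.6 at 72 h and 14.5 ± 1.3 at 144 h (SD, n = 2), while *Nes* went from 20.1 ± 0.6 to 4.75 ± 0.94 and 4.32 ± 0.71. The 72 h falls of *Tubb3* (−0.95, adjusted p = 0.059) and *Map2* (−1.16, adjusted p = 0.080) in wild type and of *Tubb3* in DKO (−1.05, adjusted p = 0.065) were not called with it. At 72 h the difference of DKO and wild type was 1.36 for *Nes* (adjusted p = 0.058) and −1.03 for *Pax6* (adjusted p = 0.18). The replicates of a group were scaled unequally. *Nes* in DKO at 24 h was 2.94 and 4.15 TPM as deposited and 6.57 and 5.64 when scaled. Its SE rose from 0.17 to 0.33, so a call lost with the scaling is not always a smaller change (*Nes* between the genotypes at 72 h went from 0.92 to 1.36).

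**Figure D3:**
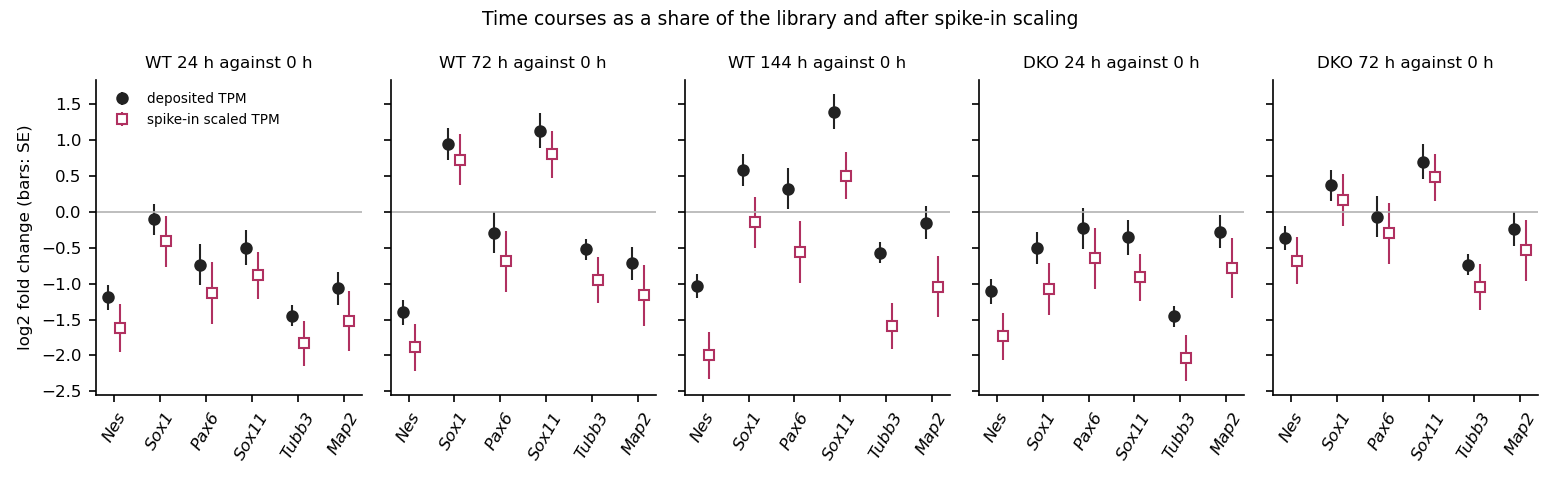
Log2 fold change with SE against 0 h from TPM as deposited (filled circles) and after spike-in scaling (open squares) for the 6 genes in 5 time comparisons. The 2 estimates lie farthest apart in wild type at 144 h, where *Sox11* is at 1.40 and 0.51 and *Nes* at −1.03 and −2.0.

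The SOX family relatives of *Sox1* and *Sox11* were measured as well, and 5 of the 6 listed were tested, of which 2 rose and 1 fell at 24 h and 3 rose and 0 fell at 72 and at 144 h in wild type, where 17.6%, 14.4% and 17.4% of all genes rose. With spike-in scaling 0 rose and 1 fell at 24 h, 1 rose and 0 fell at 72 h, and 0 were called at 144 h. *Sox4*, a SOXC gene like *Sox11*, rose in wild type from 11 to 14.6 TPM at 0 h to 32.9 to 35.5 TPM at 72 h (1.36 ± 0.21, adjusted p = 0.0013) and 31.1 to 36.4 TPM at 144 h (1.34 ± 0.21, adjusted p = 0.0013). *Sox12*, the remaining SOXC gene, rose from 16.9 to 20.5 TPM to 36.4 to 39.5 TPM at 144 h (0.99 ± 0.15, adjusted p = 0.0011). After spike-in scaling their 144 h values were 0.37 (adjusted p = 0.27) and −0.00 (adjusted p = 0.997).

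In DKO at 72 h *Sox4* (0.67 ± 0.21, adjusted p = 0.035) and *Sox12* (0.51 ± 0.15, adjusted p = 0.028) rose as well. Neither was called with spike-in scaling (0.39, adjusted p = 0.50 and 0.22, adjusted p = 0.75), with centring on the median (adjusted p = 0.12 and 0.15) or without the filter on low values (adjusted p = 0.089 and 0.064). The *Sox4* call is lost without any 1 of the 4 libraries (adjusted p up to 0.12), and that of *Sox12* without DKO 0 h replicate 2 (0.39, adjusted p = 0.16), 72 h replicate 1 (0.62, adjusted p = 0.051) or 72 h replicate 2 (0.39, adjusted p = 0.16). The genotypes did not differ by the test in *Sox4* (−0.40 ± 0.21, adjusted p = 0.29) or *Sox12* (−0.07 ± 0.15, adjusted p = 0.83) at 72 h.

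Among the SOXB1 relatives of *Sox1*, *Sox2*, which ES cells need for pluripotency, was far more abundant (200 to 380 TPM over all libraries) and rose by 0.64 ± 0.11 at 144 h in wild type (adjusted p = 0.0021, spike-in scaled −0.38, adjusted p = 0.29). *Sox3* fell at 24 h in wild type, from 2.87 to 4.96 TPM to 0.411 to 1.51 TPM (−1.35 ± 0.37, adjusted p = 0.018), a call lost without wild-type 0 h replicate 1 (−1.04, adjusted p = 0.12) or 24 h replicate 2 (−0.94, adjusted p = 0.14), and it was not called at 72 or 144 h. *Sox21*, of the SOXB2 group, moved the other way at 24 h, from 2.24 to 3.49 TPM to 7.25 to 13.5 TPM (1.52 ± 0.31, adjusted p = 0.0042, spike-in scaled 1.32, adjusted p = 0.054). At 24 h *Sox21* was lower in DKO than in wild type (−1.57 ± 0.31, adjusted p = 0.037), a call lost without any 1 of the 4 libraries (adjusted p up to 0.22). *Sox14* did not exceed 0.0384 TPM.

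**Figure D4:**
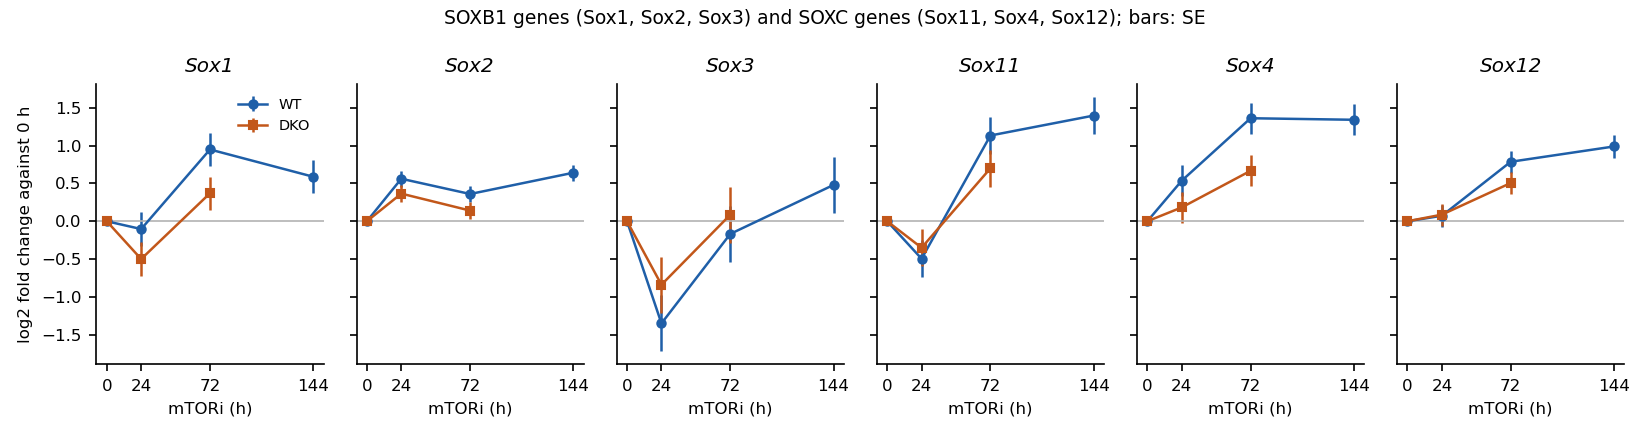
Log2 fold change of TPM + 1 against 0 h of the same genotype (vertical axis, bars are SE) by hours of mTORi for 3 SOXB1 and 3 SOXC genes. The 3 SOXC genes end at 1.40 (*Sox11*), 1.34 (*Sox4*) and 0.99 (*Sox12*) in wild type at 144 h, and *Sox3* is at −1.35 at 24 h in wild type.

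Other regulators of neural progenitors were mostly low. Of 31 transcription factors listed, 23 had a mean under 1 TPM over the 14 libraries, among them *Emx1*, *Emx2*, *Olig2*, *Pax3*, *Pax7* and *Sox9*, which did not exceed 0.275 TPM. Of the 8 tested, 3 rose in wild type at 144 h and 0 fell, with a median log2 fold change of 0.51 beside 0.06 for all genes, of which 17.4% rose. Without the filter on low values 7 of the list were called. After spike-in scaling 1 of the 8 rose, 2 fell and the median was −0.50, beside −0.88 for all genes. *Otx2*, a factor of epiblast and anterior neuroectoderm, rose from 7.79 to 9.78 TPM to 29.2 to 31.5 TPM (1.69 ± 0.22, adjusted p = 0.00062) and was also called with spike-in scaling (0.74, adjusted p = 0.044). In DKO *Otx2* rose by 1.13 ± 0.22 at 72 h (adjusted p = 0.0050, spike-in scaled 0.89, adjusted p = 0.10). *Zic2* rose by 0.99 ± 0.18 at 144 h (adjusted p = 0.0027) and *Zic5* by 0.59 ± 0.14 (adjusted p = 0.012), the latter lost without wild-type 0 h replicate 1 (0.51, adjusted p = 0.078), 144 h replicate 1 (0.59, adjusted p = 0.061) or 144 h replicate 2 (0.60, adjusted p = 0.063), and their spike-in scaled values were −0.01 (adjusted p = 0.98) and −0.39 (adjusted p = 0.34). None of the 8 was called between the genotypes at 72 h (median −0.26 beside 0.11 for all genes).

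Of 11 proneural factors, which drive neuronal commitment, 8 had a mean under 1 TPM, and none of the 3 tested was called in the comparisons of TPM as deposited without a block or centring. In wild type at 24 h 1 was called with replicates blocked within the genotype and 2 with centring on the median, which called 1 at 72 h. *Neurog2* did not exceed 0.0409 TPM in any library. In wild type at 144 h 2 of the 3 fell after spike-in scaling, where 8917 of all 15878 genes fell.

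Of 18 further progenitor genes for surface proteins, filaments, Notch signalling and RNA binding, 13 were tested, and in wild type 5 rose and 3 fell at 144 h (median 0.27 beside 0.06, with 17.4% and 12.7% of all genes). *Vim*, the filament protein that assembles with nestin, fell from 150 to 262 TPM at 0 h to 34.6 to 36.4 TPM at 144 h (−2.45 ± 0.33, adjusted p = 0.00075), as it did in DKO at 72 h (−2.13 ± 0.33, adjusted p = 0.0018). *Plagl1*, an imprinted zinc finger gene, fell in wild type at 144 h (−1.98 ± 0.40, adjusted p = 0.0051). *Notch3*, a Notch receptor, rose by 1.1 ± 0.23 (adjusted p = 0.0058, spike-in scaled 0.15, adjusted p = 0.73). The falls of *Vim* and *Plagl1* were larger after spike-in scaling (−3.48 and −2.97 at 144 h). After it 0 of the 13 rose and 6 fell, where 8917 of all 15878 genes fell. Without the filter on low values 5 of the list were called at 144 h. The rises other than that of *Notch3*, and the fall beside those of *Vim* and *Plagl1*, are lost without some 1 library.

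In DKO at 72 h the Notch ligand *Dll1* rose from 1.17 to 1.57 TPM to 2.83 to 2.89 TPM (0.71 ± 0.20, adjusted p = 0.025), a call lost without DKO 0 h replicate 2 (0.59, adjusted p = 0.14), 72 h replicate 1 (0.70, adjusted p = 0.11) or 72 h replicate 2 (0.72, adjusted p = 0.090), and with spike-in scaling (0.63, adjusted p = 0.39). The RNA-binding protein gene *Msi1* was the only 1 of the 13 called between the genotypes at 72 h, with 14.8 to 18.4 TPM in DKO and 8.37 to 8.54 TPM in wild type (0.89 ± 0.21, adjusted p = 0.042). Without any 1 of the 4 libraries this call is lost (0.74 to 1.04, adjusted p up to 0.24), as it is with spike-in scaling (1.32, adjusted p = 0.12).

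Of 14 other tubulin and microtubule genes, 11 were tested, 5 fell and 0 rose in wild type at 24 h (median −0.39 beside −0.00, with 15.7% of all genes lower), where *Tubb3* and *Map2* fell too. *Tuba1a*, an α-tubulin of dividing and neuronal cells, went from 322 to 325 TPM at 0 h to 129 to 165 TPM at 24 h (−1.15 ± 0.13, adjusted p = 0.00019) and 278 to 283 TPM at 144 h (−0.20 ± 0.13, adjusted p = 0.26) in wild type. At 144 h 4 of the 11 fell and 1 rose, where 12.7% and 17.4% of all genes did. After spike-in scaling 10 fell, where 8917 of all 15878 genes fell. *Tubb2a* (−1.03 ± 0.30, adjusted p = 0.027), *Tubb2b* (−0.73 ± 0.20, adjusted p = 0.022) and *Stmn3* (−0.77 ± 0.19, adjusted p = 0.014), which acts on free tubulin, were the largest falls. The call of *Tubb2a* is lost without wild-type 0 h replicate 1 (−0.73, adjusted p = 0.17), 144 h replicate 1 (−1.13, adjusted p = 0.073) or 144 h replicate 2 (−0.93, adjusted p = 0.14), that of *Tubb2b* without the same 3 libraries (−0.58, −0.83 and −0.64, adjusted p = 0.14, 0.055 and 0.13), and that of *Stmn3* without 0 h replicate 1 (−0.68, adjusted p = 0.080) or 144 h replicate 2 (−0.71, adjusted p = 0.087). All 3 were called with spike-in scaling. Both copies fell in DKO at 72 h too, *Tubb2a* (−0.90 ± 0.30, adjusted p = 0.046) and *Tubb2b* (−0.82 ± 0.20, adjusted p = 0.015). The *Tubb2a* call there is lost without any 1 of the 4 libraries (adjusted p up to 0.24), and that of *Tubb2b* without DKO 0 h replicate 2, 72 h replicate 1 or 72 h replicate 2 (adjusted p up to 0.11). *Tubb2a* and *Tubb2b* are near-identical copies, and how reads were split between them is uncertain. *Dcx*, the doublecortin gene of migrating neurons, did not exceed 0.0503 TPM.

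At 72 h *Stmn1* was lower in DKO than in wild type (−0.60 ± 0.15, adjusted p = 0.044) and *Map4* was higher (0.43 ± 0.09, adjusted p = 0.034). Both calls are lost without any 1 of the 4 libraries (adjusted p up to 0.23 for each) and with spike-in scaling (−0.19, adjusted p = 0.59 and 0.84, adjusted p = 0.16).

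Other neuronal genes went both ways. Of 18 listed, 14 were tested, and in wild type 6 fell and 1 rose at 24 h, where 15.7% of all genes fell. At 144 h 1 fell and 5 rose, where 17.4% of all genes rose. With spike-in scaling 7 fell and 0 rose at 144 h, where 8917 of all 15878 genes fell. With replicates blocked within the genotype 10 of the 14 were called at 144 h. The adhesion molecule gene *L1cam* rose at 144 h from 1.40 to 2.27 TPM to 6.77 to 7.03 TPM (1.49 ± 0.20, adjusted p = 0.00062), *Elavl3*, an RNA-binding protein of neurons, by 1.24 ± 0.18 (adjusted p = 0.0011) and *Crmp1*, of axon guidance, by 1.05 ± 0.13 (adjusted p = 0.00043). Their spike-in scaled values were 0.76 (adjusted p = 0.096), 0.45 (adjusted p = 0.32) and 0.04 (adjusted p = 0.91). In DKO at 72 h *L1cam* rose by 1.47 ± 0.20 (adjusted p = 0.00091, spike-in scaled 1.33, adjusted p = 0.058). *Gap43*, of growing axons, fell in wild type from 8.11 to 11.6 TPM at 0 h to 0.556 to 0.739 TPM at 24 h (−2.70 ± 0.46, adjusted p = 0.0017) and in DKO at 72 h (−1.65 ± 0.46, adjusted p = 0.023), the latter lost without DKO 0 h replicate 2 (−1.08, adjusted p = 0.17) or 72 h replicate 1 (−1.17, adjusted p = 0.16). Between the genotypes at 72 h *Dpysl3* was lower in DKO (−0.65 ± 0.14, adjusted p = 0.029) and the neurofilament gene *Nefh* higher (0.61 ± 0.14, adjusted p = 0.041). The *Dpysl3* call is lost without wild-type replicate 1 (−0.57, adjusted p = 0.15), wild-type replicate 2 (−0.74, adjusted p = 0.087) or DKO replicate 1 (−0.44, adjusted p = 0.19), and the *Nefh* call without any 1 of the 4 libraries (adjusted p up to 0.23). With spike-in scaling they were −0.26 (adjusted p = 0.50) and 1.02 (adjusted p = 0.12).

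*Rest*, the repressor that keeps neuronal genes off outside neurons, was between 150 and 233 TPM in all libraries and was not called in any comparison of TPM as deposited. With spike-in scaling it fell in wild type at 144 h (−0.83, adjusted p = 0.027) and in DKO at 24 h (−0.89, adjusted p = 0.043). Of 10 genes of its complex, itself included, all tested, 3 rose and 1 fell in wild type at 144 h (median −0.00 beside 0.06, with 17.4% of all genes higher and 12.7% lower), and after spike-in scaling 0 rose and 7 fell, where 8917 of all 15878 genes fell. The corepressor genes *Rcor3* (0.92 ± 0.18, adjusted p = 0.0046), *Ctdsp2* (0.49 ± 0.10, adjusted p = 0.0054) and *Sin3a* (0.41 ± 0.07, adjusted p = 0.0027) rose, and none was called with spike-in scaling (0.13, adjusted p = 0.75, −0.52, adjusted p = 0.14, and −0.61, adjusted p = 0.065). In DKO at 72 h *Rcor3* rose (0.78 ± 0.18, adjusted p = 0.012) and *Rcor2* fell (−0.63 ± 0.14, adjusted p = 0.0092). The *Rcor3* call is lost without DKO 0 h replicate 2 (0.77, adjusted p = 0.057), 72 h replicate 1 (0.79, adjusted p = 0.058) or 72 h replicate 2 (0.76, adjusted p = 0.061), the *Rcor2* call without DKO 0 h replicate 2 (−0.60, adjusted p = 0.053) or 72 h replicate 2 (−0.43, adjusted p = 0.071), and both with spike-in scaling (0.58, adjusted p = 0.35 and −0.94, adjusted p = 0.073). None of the 10 was called between the genotypes at any time.

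**Figure D5:**
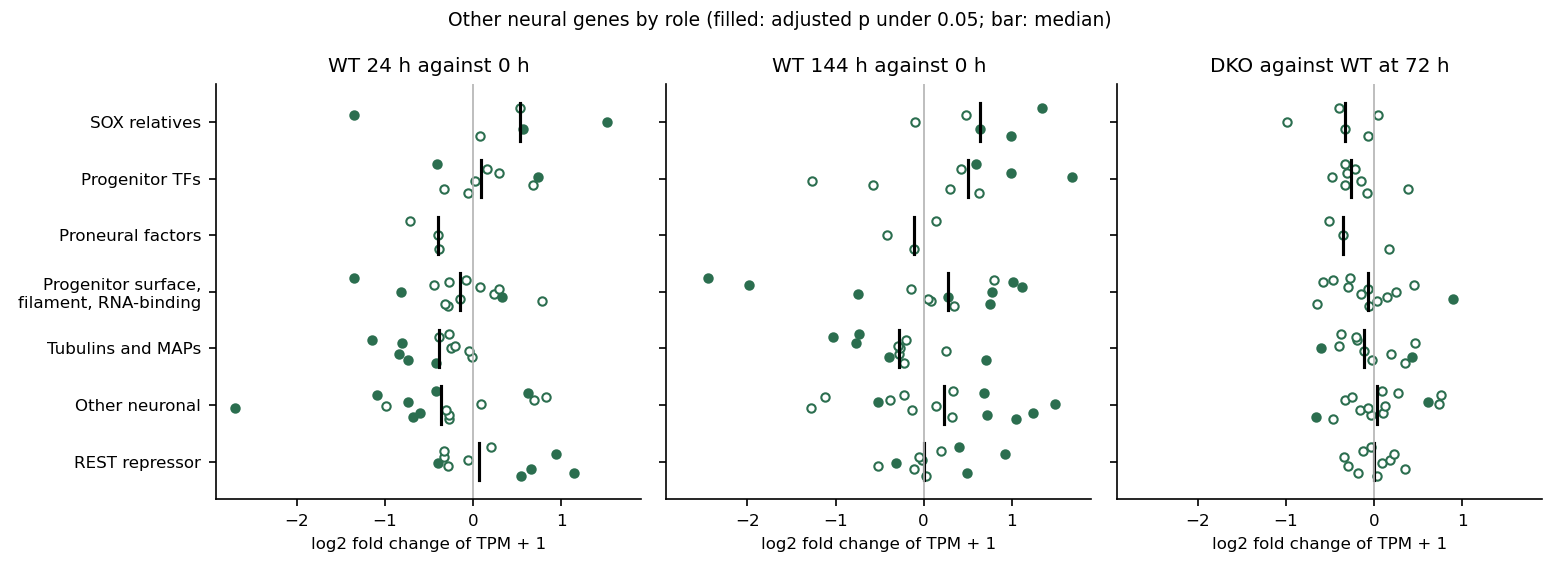
Log2 fold change of TPM + 1 (horizontal axis, 1 range for all panels) of the genes of 7 neural lists that passed the filter on low values, filled where the adjusted p was under 0.05, with the list median (bars). In wild type at 24 h the tubulin and microtubule list has its median at −0.39, and in DKO against wild type at 72 h few points are filled.

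Markers of other cell types moved with some of these comparisons. All 12 primitive endoderm markers rose in wild type at 24 h, where *Nes*, *Tubb3* and *Map2* fell, and their sum went from 306 to 398 TPM at 0 h to 1056 to 1328 TPM, with *Gata4* at 17.7 and 31.6 TPM. With spike-in scaling 9 of the 12 rose, and the *Gata4* call is lost without wild-type 0 h replicate 1 (1.84, adjusted p = 0.11) or 24 h replicate 2 (2.06, adjusted p = 0.10). The sum was 250 to 330 TPM at 72 h and 167 to 191 TPM at 144 h. In DKO it was 336 to 364 TPM at 0 h, 470 to 498 TPM at 24 h, with 1 of the 12 called, and 310 to 320 TPM at 72 h. *Nes* and *Tubb3* fell in DKO at 24 h with estimates of −1.11 and −1.46 beside −1.19 and −1.45 in wild type, where that sum was higher. *Map2* was at −1.06 in wild type at 24 h and at −0.27 in DKO (adjusted p = 0.42). The 10 trophectoderm markers, 4 of them under a mean of 1 TPM, summed to 61.3 to 81.4 TPM at 0 h and 110 to 169 TPM at 24 h in wild type. Of the 12 mesoderm markers 7 were under a mean of 1 TPM. In wild type the 12 summed to 12.2 to 14.1 TPM at 0 h and 25.7 to 29.6 TPM at 24 h. Their sum there was 18.3 to 18.5 TPM at 72 h and 16.3 to 16.7 TPM at 144 h. In DKO it was 10.9 to 13.1 TPM at 0 h, 18.6 to 32.0 TPM at 24 h and 19.6 to 22.9 TPM at 72 h. Of the 5 mesoderm markers tested 0 were called between the genotypes at 72 h. Of the fibroblast list *Fn1* was at 208 to 693 TPM, *Thy1* at 1.12 to 17.1 TPM and *Acta2* at 0 to 10.6 TPM, with *Col1a1*, *Col1a2*, *Col3a1*, *Dcn*, *Lum* and *Postn* under a mean of 1 TPM. At 144 h in wild type *Col4a1* (−2.04 ± 0.28, adjusted p = 0.00080) and *Sparc* (−1.74 ± 0.14, adjusted p = 6.5e-05) of the endoderm list fell. The other 10 were not called, while 7 of the 12 were called with replicates blocked within the genotype. *Gata3* of the trophectoderm list fell (−1.46 ± 0.32, adjusted p = 0.0073), and *Eomes*, on both the trophectoderm and the mesoderm list, rose (0.91 ± 0.19, adjusted p = 0.0053). *Fn1* rose as well (1.27 ± 0.15, adjusted p = 0.00042). Neither rise was called with spike-in scaling (0.093, adjusted p = 0.82 for *Eomes* and 0.25, adjusted p = 0.46 for *Fn1*). Of the same lists in DKO at 72 h, *T* (0.96 ± 0.20, adjusted p = 0.0070), *Twist1* (0.84 ± 0.21, adjusted p = 0.016), *Eomes* (0.57 ± 0.19, adjusted p = 0.044) and *Fn1* (1.13 ± 0.15, adjusted p = 0.00097) rose. The first 3 of these calls are lost without 1 library or another (adjusted p up to 0.055, 0.11 and 0.24). None of the 4 genes was called with spike-in scaling. No defining marker of these lists was at 0 in all libraries, and the part of other cell types in the results of the 6 genes was not tested.

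Over the 14 libraries the 6 genes did not vary as 1 group. The correlation of log2(TPM + 1), given as a description because the libraries of a group share their condition, was highest for *Sox1* and *Sox11* (Pearson r = 0.81), then for *Tubb3* and *Map2* (0.70), *Nes* and *Tubb3* (0.62) and *Pax6* and *Map2* (0.61). It was lowest for *Nes* with *Sox11* (−0.16), *Sox1* (−0.10) and *Pax6* (−0.09). The genes most like each member by this measure were *Psmd2*, *Snf8* and *Ada* for *Nes* (r = 0.963, 0.951 and 0.945), *Vangl2*, *Bmp2k* and *Gcnt2* for *Sox1* (0.891, 0.876 and 0.870), and *Bcl11a*, *Rian* and *Igsf9* for *Sox11* (0.978, 0.970 and 0.970). For *Pax6* they were *Dennd2c*, *Mycn* and *Cldn6* (0.963, 0.961 and 0.929), for *Tubb3* *Acat3*, *Odc1* and *Tuba1a* (0.950, 0.945 and 0.938), and for *Map2* *Fut9*, *Fsd1* and *2700097O09Rik* (0.878, 0.878 and 0.871). All were computed over 14 libraries in 7 groups. *Tuba1a* was the only gene of the neural lists among them, and no gene was nearest to 2 members.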

How the data were processed

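RNA was extracted by the authors from sorted cells, spiked with ERCC RNA, depleted of ribosomal RNA and sequenced paired-end. Per the labels, reads were trimmed with cutadapt (2.4), aligned with STAR (2.7.3a) to mm10 and quantified with StringTie (2.0) on GENCODE VM19, and the deposited TPM sum to 1000000 in each of the 14 libraries, with no ERCC entry. TPM keep no counts, so the depth cannot be read from them and no counting error is given. Values of the 10 identifiers with several entries were summed.

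Here log2(TPM + 1) was kept for 15878 genes whose mean reached 1 TPM (of 38890 above 0 in any library) and fitted in limma (3.58.1, R 4.3.3, empirical Bayes with trend) over all 7 groups, and a gene was called at a Benjamini-Hochberg adjusted p under 0.05 within its comparison. Fold changes are on the log2(TPM + 1) scale, which understates low genes. The authors tested with DESeq2, which needs counts, and a count model was not used here. Recovery was tried on simulated data in which 200 of the 15878 genes were raised in 1 group. For the 24 h comparison in wild type, 64.5% of genes changed by a log2 of 1 and 95% of those changed by 2 were recovered. For the differences of the 24 and 72 h responses it was 33.5% and 32.5% of those changed by 1. The time comparisons here called 4324 to 5284 genes, so these rates do not carry over to them.

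Spike-in scaled TPM are an alternative. The factor of each library is the median ratio of the authors' spike-in normalized table to the deposited TPM, over 482 to 539 genes. The other alternatives were a pseudocount of 0.1, no filter, centring on the median, blocks on the replicate number, only the groups compared, and leaving out each library. The study states that the time points of a replicate were processed in parallel. Replicate differences correlated across genes at 0.247 to 0.405 in 3 of 3 pairs of DKO times and at 0.068 to 0.461 in the 6 pairs of wild-type times. A block on the replicate number within each genotype was therefore among the alternatives. The fit behind the printed calls had no block, and calls of the 6 genes that changed with the block are given with each gene. Between the genotypes the same correlations ran from −0.553 to 0.144, negative in 10 of 12 pairs of groups, so whether the numbers of the 2 genotypes correspond is not known.

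The members and lists were chosen with earlier results of these data known. Beside the 6 members, the SOX relatives, *Rest* and the *Tet* genes, each list gave the 3 largest called changes in wild type at 144 h and the 2 largest in DKO at 72 h against 0 h and against wild type, and each member the 3 genes of highest Pearson r spanning at least 200 bp and not overlapping it. *Tuba1a* at 24 h, *Gap43* at 24 h, *Gata4*, *Pou5f1*, *Nanog* in wild type and the genes given as low were chosen after their values were seen, as were the motif letters.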

Additional observations from a re-analysis of the deposited data

How the results depend on the processing

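With spike-in scaled TPM the number of the 6 genes called fell from 5 to 1 in wild type at 72 h, from 1 to 0 in DKO at 72 h and from 2 to 0 between the genotypes at 72 h, and rose from 2 to 4 in DKO at 24 h. On this scale most genes were lower in treated cells than at 0 h, as the shift of the all-gene median shows. Estimates of the other sign, none of them called, were 0.16, 0.042 and −0.11 for *Nes* (genotypes at 0 h, genotypes at 24 h, difference of the 24 h responses), −0.14, 0.0061 and 0.11 for *Sox1* (wild type at 144 h, genotypes at 24 h, genotypes at 72 h), 0.065, 0.037 and −0.028 for *Sox11* (genotypes at 0 h, genotypes at 24 h, difference at 24 h), −0.56 for *Pax6* (wild type at 144 h), 0.13 and 0.030 for *Tubb3* (genotypes at 0 and 72 h) and 0.31 for *Map2* (genotypes at 72 h).

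Without the filter on low values, 3 of the 6 were called in wild type at 72 h and 1 between the genotypes at 72 h. With only the groups compared in the fit the counts were 3 in wild type at 72 h, 2 in DKO at 72 h and 0 between the genotypes at 72 h. The genotypes at 72 h gave 1 with a pseudocount of 0.1, 1 with centring on the median and 1 with a replicate block over all libraries, and at 0 h centring gave 1. Centring called *Pax6* in wild type at 24 h as well and turned the difference of the 24 h responses of *Tubb3* to 0.0059. With a replicate block within each genotype 2 of the 6 were called in DKO at 72 h, and *Sox11* there and *Pax6* in wild type at 24 h were gained. It changed no other call of the 6 genes, raised the calls of the neuronal list (6 to 10) and of the endoderm markers (2 to 7) in wild type at 144 h and of the mesoderm markers in DKO at 72 h (3 to 5), and it cannot be used between the genotypes. With the numbers crossed between the genotypes, chosen after seeing the data, 2 were called in DKO at 72 h and 1 between the genotypes at 0 h. The causes were not tested.

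Leaving out 1 library, the count was 2 to 3 in wild type at 72 h and 0 to 0 between the genotypes at 72 h. Estimates of uncalled changes turned sign over a range of −0.23 to 0.16 for *Nes* (genotypes at 24 h) and −0.11 to 0.27 (difference at 24 h), −0.33 to 0.12 for *Sox1* (wild type at 24 h) and −0.22 to 0.11 (genotypes at 24 h), −0.33 to 0.26 for *Sox11* (genotypes at 24 h) and −0.15 to 0.44 (difference at 24 h). For *Pax6* they were −0.71 to 0.13 and −0.090 to 0.74 (wild type at 72 and 144 h), −0.51 to 0.060 and −0.35 to 0.22 (DKO at 24 and 72 h) and −0.19 to 0.64 (difference at 72 h). For *Tubb3* they were −0.13 to 0.11 (difference at 24 h), and for *Map2* −0.65 to 0.11 (DKO at 24 h), −0.093 to 0.67 and −0.17 to 0.12 (genotypes at 24 and 72 h). Of the calls of list genes, 23 of 46, 18 of 31 and 18 of 41 in wild type (24, 72 and 144 h), 15 of 26 and 24 of 33 in DKO (24 and 72 h) and 0 of 1, 9 of 10 and 5 of 6 between the genotypes (0, 24 and 72 h) were lost without some library. With spike-in scaling 24, 24 and 27, 12 and 28, and 0, 9 and 5 of them were lost.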
